A study of Mus musculus with 6 samples.

Results

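Untreated MCRedAL tumor cells are described here by the absolute array level of their genes in 3 tumors, the 3 untreated samples among the 6 of the series. The MCRedAL line comes from mouse prostate cancer and carries the red fluorescent protein mCherry. It was grown as allografts in male mice, and the untreated tumors, which the submitters also call castration sensitive, received no degarelix, the antagonist of the gonadotropin-releasing hormone receptor given to the other 3. Tumors of similar size were used, and mCherry-positive cells were sorted after exclusion of CD45, F4/80 and CD11b, proteins found on leukocytes, macrophages and other myeloid cells. The cells went straight from the sorter into lysis reagent, and RNA with an integrity number of at least 9 was hybridised to Affymetrix MTA 1.0 whole-transcript arrays. By their labels the 3 samples are biological replicates. The sources used here state neither the age and strain of the mice nor the number of clones behind the line. Only the untreated columns of the deposited values were used below. Whether the submitters normalized them together with the treated arrays was not checked.

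The array table held 65956 measured clusters, of which 30604 carried exactly 1 gene symbol. The brightest cluster of each symbol gave 30063 genes. A level is the log2 value of robust multi-array averaging, so 1 unit is a factor of 2 in signal. A gene was counted as above background when it exceeded the brightest of 23 background probe sets on all 3 arrays. That limit lay at 6.93 in tumor 1, 6.61 in tumor 2 and 6.59 in tumor 3. The limit is strict, and tumor 1 sets the highest bar. The background probe sets differ in GC content, and the brightest on each array was the one with 22 GC bases. Their median was only 3.26, 3.26 and 3.20 in tumors 1 to 3. Genes were not compared with probe sets of matching GC content, so a gene under the limit may still be expressed. Tbp, the TATA-binding protein used as a housekeeping gene, averaged 6.72 ± 0.01 (SD, n = 3). It passed in tumors 2 and 3 and failed only in tumor 1. Olfactory receptors, which are largely restricted to the nose, gave a second yardstick. Of 1225 such genes, 1 was above background and 1154 lay at or below their own 95th percentile on every array, which was 4.95, 4.94 and 4.87 in tumors 1 to 3. Levels at or below that percentile are called receptor level here. Array levels of different genes depend on their probes, so a rank between genes is a rank of signal and not of molecules.

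**Figure D1:**
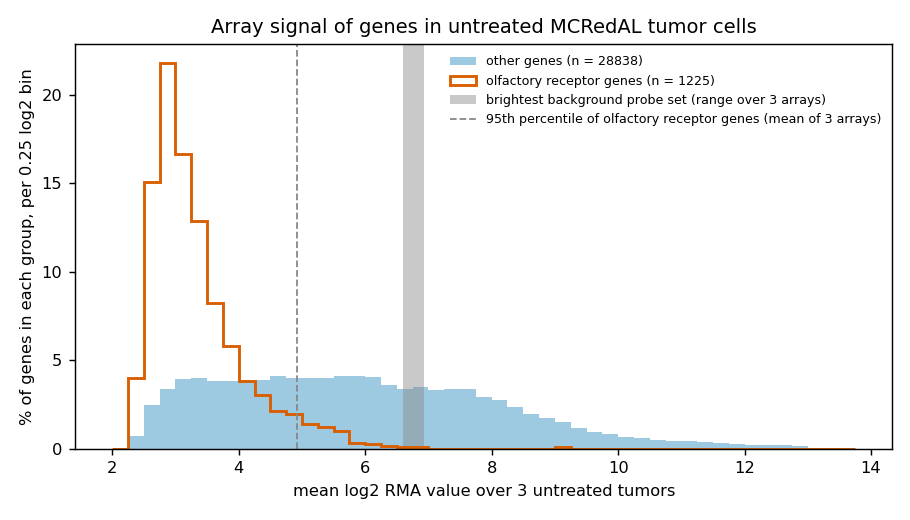
Distribution of mean log2 RMA values over the 3 untreated tumors (x axis) for 1225 olfactory receptor genes (orange outline) and all other genes (blue), as percent of genes per bin (y axis). The gray band spans the brightest background probe set of the 3 arrays, from 6.59 to 6.93, and the dashed line marks the 95th percentile of the olfactory receptors. The receptors peak near 3, with a median of 3.11, whereas the other genes reach 13.45.

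Above background on all 3 arrays were 9055 of 30063 genes, or 30.1%, and 6825 of 19067 protein-coding genes, or 35.8%. The median was 5.61 over all genes and 6.10 over protein-coding genes. Counts of list members below are to be read beside these shares. Tumor 1 stood somewhat apart from the other tumors. It was the lowest of the 3 in 11815 of the 30063 genes and the highest in 11475. Its Pearson correlation across genes above background was 0.979 with tumor 2 and 0.981 with tumor 3, whereas tumors 2 and 3 correlated at 0.993. Its background probe sets of high GC content were also brighter, and 9139 of its genes exceeded the limit, against 10497 in tumor 2 and 10565 in tumor 3. Without tumor 1, 10313 genes were above background on both remaining arrays.

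The 25 named genes with the highest signal included many that cells of most kinds express. Hspa8, the constitutive chaperone of the heat shock 70 family, was the brightest at 13.48, 13.46 and 13.42. The elongation factors Eef1a1 and Eef2 averaged 12.68 and 12.38, beta-actin (Actb) 12.21, and the antioxidant enzyme Sod1 12.52. The same 25 held secreted and cell surface products. Lcn11, a secreted lipocalin, reached 12.52, 13.17 and 13.11, the second highest mean of the named genes, and was lowest in tumor 1. The matrix glycoprotein fibronectin (Fn1) reached 12.45, 12.24 and 12.38. B2m, the light chain of class I major histocompatibility molecules, reached 12.84, 12.88 and 12.75. Cdcp3, a protein with CUB domains, reached 12.51, 12.26 and 11.96. The 3 tumors lay within 0.65 of each other in each of these 4 genes.

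The prostate gland is lined by secretory luminal cells over a layer of basal cells, with rare neuroendocrine cells between them. Luminal cells are known for the keratins Krt8 and Krt18 and for androgen-dependent secretion, basal cells for Krt5, Krt14 and the factor Trp63, and neuroendocrine cells for chromogranins and synaptic vesicle proteins. The tumor cells carried the luminal program only in part. Of 19 measured luminal genes, 9 were above background, or 47.4% against 35.8% of protein-coding genes, and 6 were at receptor level. Their median of 6.20 was near the 6.10 of protein-coding genes, against 5.61 over all genes.

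Krt8, a keratin of simple epithelia, read 11.25, 11.90 and 11.49, at percentile 98.6 of all genes by mean signal. The tight-junction protein Cldn3 read 10.48, 10.68 and 10.69. Psca, a surface antigen of prostate cells and their progenitors, read 9.57, 10.15 and 10.51. All 3 genes were far above the limit in every tumor, with tumor 1 lowest. Krt7 averaged 9.92 ± 0.14 (SD, n = 3), and Cldn4 read 9.12, 10.46 and 10.14, the only luminal gene with a range above 1 unit. Cd24a, Krt19 and the homeobox factor Hoxb13 averaged 9.08, 7.29 and 7.15.

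Other defining luminal genes had little signal. Krt18, the usual partner of Krt8, read 5.47, 5.65 and 5.38, between the 2 yardsticks. The epithelial adhesion genes Cdh1 and Epcam averaged 4.85 and 3.85, both at receptor level in all 3 tumors. Probasin (Pbsn), the classical androgen-driven secretory protein of mouse prostate, averaged 3.57, and Prom1 and Ocln averaged 3.55 and 3.57. These low values were alike in all tumors, with SDs from 0.01 to 0.14. Whether the array's probes for these genes respond to their transcripts was not tested.

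Of 14 basal genes, 4 were above background, or 28.6%, close to the 30.1% of all genes and under the 35.8% of protein-coding genes. None was at receptor level, and the median was 6.40. Krt15 read 8.50, 7.83 and 8.36. The keratin cluster that Krt6a shares with Krt6b, which is outside these 14, averaged 9.91. The nerve growth factor receptor Ngfr, the cytolinker Dst and the laminin receptor subunit Itga6 averaged 8.03, 8.13 and 7.68. The defining genes stayed under the limit, with Krt5 at 6.58, Krt14 at 5.94 and Trp63 at 4.97, 5.07 and 4.98.

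Of 15 neuroendocrine genes, 3 were above background, or 20%, against 35.8% of protein-coding genes. The ubiquitin hydrolase Uchl1, abundant in neurons, read 11.63, 11.85 and 12.05, close to Krt8. Rest, also among the 3, is the repressor that silences neuronal genes in other cells and so no marker of this cell type. It averaged 7.88, and the adhesion molecule Ncam1 averaged 7.47. Chga and Syp, the usual diagnostic genes, averaged 6.19 and 5.35, and Chgb, Scg2, Scg3 and Snap25 were at receptor level. Thus the list's high value came from 1 gene, and its other 14 members did not exceed 7.88.

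**Figure D2:**
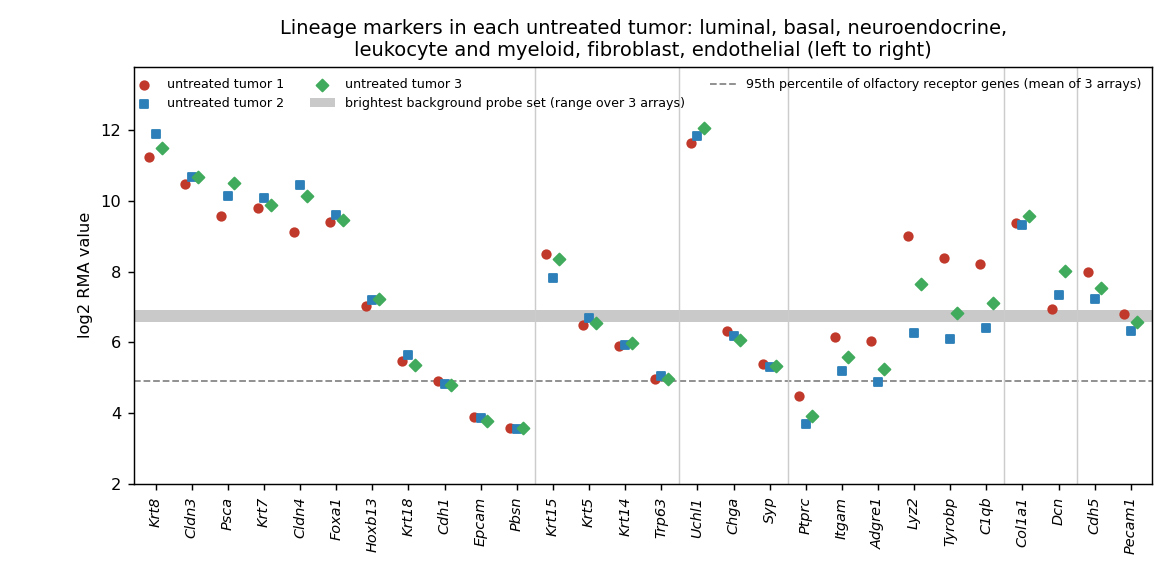
Log2 RMA value (y axis) of defining lineage genes in untreated tumors 1 (red circles), 2 (blue squares) and 3 (green diamonds), with the range of the brightest background probe set in gray and the olfactory 95th percentile dashed. Krt8, Cldn3 and Uchl1 lie above 10 in every tumor and Epcam and Pbsn below 4, whereas Lyz2, Tyrobp and C1qb spread across the background band with tumor 1 highest.

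Of 21 measured prostate lineage factors, 9 were above background, or 42.9% against 35.8% of protein-coding genes, with a median of 6.53. Foxa1, the pioneer factor that opens chromatin for steroid receptors, read 9.40, 9.60 and 9.45. Sox9, a factor of prostate development, read 8.87, 9.29 and 9.89, with tumor 3 highest. Sox4 averaged 8.70, and the epithelial regulators Klf5, Grhl2, Elf3 and Ehf averaged 8.17, 7.97, 7.80 and 7.54. Of the paired epithelial splicing regulators, Esrp2 averaged 8.66 and Esrp1 4.03, which is receptor level. Spdef and Gata2 did not pass on all 3 arrays, with means of 6.76 and 6.53, and the fusion-associated factor Erg averaged 5.18.

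Mesenchymal genes had the highest median of the lineage lists. Of 17 genes linked to epithelial-mesenchymal transition, 12 were above background, or 70.6% against 35.8% of protein-coding genes. Their median was 8.10. After Fn1, the fibronectin receptor subunit Itga5 read 10.43, 10.89 and 11.34, and the matricellular protein Sparc 10.35, 10.31 and 10.41. Vimentin (Vim), the intermediate filament of mesenchymal cells, read 9.62, 9.43 and 9.90. Of the transcription factors that drive the transition, Snai1 was above background at 7.09. Twist1 and Zeb1 were not, at 6.39 and 5.62, and N-cadherin (Cdh2) was at receptor level at 4.85. Krt8 and Vim were therefore both present and Cdh1 and Cdh2 both at receptor level. A bulk sample does not show whether Krt8 and Vim were in the same cells.

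Genes of neighbouring and unrelated organs were mostly low. Of 14 seminal vesicle and urinary tract genes, 1 was above background, the uroplakin Upk1b at 8.06, 6.74 and 6.88, and all 6 seminal vesicle secretory proteins measured were at receptor level. Of 15 genes of squamous keratinisation, 1 was above, Cdsn at 6.95. Without tumor 1 these counts were 2 and 2, and with a limit 1 unit higher both were 0. By limma's one-sided test the count of the squamous list was 0 as well, with an adjusted p of 0.142 for Cdsn. Of 16 genes of other organs, 2 were above, the eye and islet factor Pax6 at 7.73 and the kidney water channel Aqp2 at 7.68, with liver albumin (Alb) at 3.79.

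The sort removed cells with CD45, and its gene Ptprc read 4.47, 3.68 and 3.93, with the mean at 4.03. None of 12 leukocyte genes was above background on any array. Tumor 1 was highest in 10 of the 12, against 11475 of all 30063 genes. T cell genes (Cd3e, Cd8a) averaged 5.31 and 5.16, and the B cell gene Ms4a1 averaged 3.34. Itgam, which encodes CD11b, averaged 5.65, and Adgre1, which encodes F4/80, read 6.05, 4.87 and 5.24. Both sort antigens were under the limit in all tumors.

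Other myeloid genes were not at the floor and differed among the tumors. Of 16 myeloid genes, 3 were above background on all arrays, or 18.75% against 35.8% of protein-coding genes. They were Ly6c2 at 8.93, the complement subunit C1qa at 7.53 and the lysosomal protein Cd68 at 7.47. Lysozyme (Lyz2) read 9.02, 6.26 and 7.65. The signaling adaptor Tyrobp read 8.39, 6.11 and 6.84, and the complement subunit C1qb 8.23, 6.41 and 7.10. Tumor 1 was highest in 12 of the 16 genes and tumor 2 lowest in 14. Over all 30063 genes, tumor 1 was highest in 11475 and tumor 2 lowest in 8542. The summed linear signal of the list was 2881 in tumor 1, 1266 in tumor 2 and 1870 in tumor 3, and 8, 3 and 7 of its members exceeded the limit. Without tumor 2, 7 of the 16 were above background. The neutrophil genes Ly6g and S100a8 were at receptor level, at 4.58 and 3.65. In such bulk samples fewer cells of a type and less RNA per cell cannot be told apart.

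Genes of stroma varied less than the myeloid genes, whose median SD was 0.54. The median SD was 0.18 for fibroblast, 0.25 for endothelial and 0.17 for smooth muscle genes. It was 0.12 over all genes above background on at least 1 array. Of 11 fibroblast genes, 7 were above background, or 63.6% against 35.8% of protein-coding genes, with a median of 7.44. Periostin (Postn) read 9.69, 9.46 and 10.02, and collagen I (Col1a1) 9.39, 9.32 and 9.59. Decorin (Dcn) read 6.94, 7.35 and 8.02, with tumor 3 highest, while the fibroblast protease Fap was at receptor level at 4.68. Of 10 endothelial genes, 3 were above, or 30%, like the 30.1% of all genes. VE-cadherin (Cdh5) was among them at 7.99, 7.23 and 7.55, and Pecam1 was not, at 6.58. Of 10 smooth muscle genes, 4 were above, or 40% against 35.8% of protein-coding genes. Acta2 was the highest at 8.79, and the mature smooth muscle myosin Myh11 averaged 5.75. The summed linear signal from tumors 1 to 3 was 3049, 2836 and 3531 for the fibroblast genes and 1064, 850 and 888 for the endothelial genes. In the endothelial list tumor 1 was highest in 8 of 10 genes and tumor 2 lowest in 8, like the myeloid genes. Over all 30063 genes these counts were 11475 and 8542. Tumor 3 was highest in 8 of the 11 fibroblast genes and tumor 2 in 7 of the 10 smooth muscle genes. The part of other cells in these levels was not tested.

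The chromosomal sex genes did not follow the label in a simple way. The samples are labelled male, and Sry read 7.99, 7.92 and 7.87. The other 6 Y-linked genes measured, Kdm5d, Eif2s3y, Uty, Zfy1, Zfy2 and Usp9y, were all at receptor level, with means from 2.75 to 3.51. The X-inactivation transcript Xist was at receptor level as well, at 3.49. Whether the array's probes for Sry and these other genes respond to their transcripts alone was not tested, so the Sry signal does not by itself show Sry expression.

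**Figure D3:**
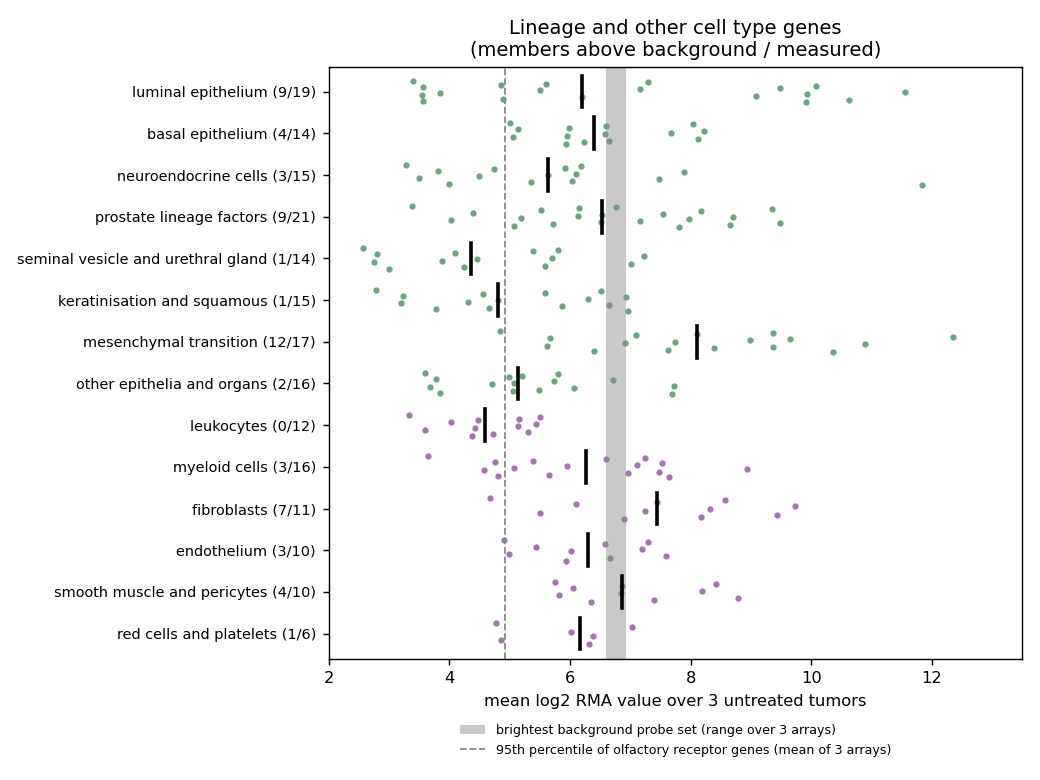
Mean log2 RMA value over the 3 untreated tumors (x axis) of every measured gene in 14 lists of lineage genes (green) and of other cell types (purple). Black ticks are list medians, the gray band and dashed line are the 2 background yardsticks, and each label gives members above background over members measured. The mesenchymal and fibroblast lists have medians right of the band and the leukocyte list lies left of it.

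Luminal prostate cells normally pour out kallikreins, spermine-binding protein, protease inhibitors and citrate under androgen control. Little of the textbook mouse secretion was present. Of 21 secretory genes, 5 were above background, or 23.8%, against 30.1% of all genes and 35.8% of protein-coding genes. At receptor level were 11, and the median of 4.44 was below that of all genes. Pbsn, Msmb, Spink1, Sbp, Tgm4 and Azgp1 were all at receptor level, with means from 3.35 to 4.44. The 5 genes above were the kallikreins Klk1b27 and Klk1, and Apof, Ppic and Ceacam10, which averaged 8.34, 8.28 and 7.58. Spinkl, a relative of the serine protease inhibitors of the Kazal type, read 6.01, 9.70 and 6.77. It was high in tumor 2 alone, and its range of 3.69 was the widest of all named genes. Without tumor 2 the range was 0.77.

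The glandular kallikreins are secreted serine proteases encoded side by side on chromosome 7. The family was singled out after its values were seen. All 11 measured members of the 14 listed were above background, with means from 7.78 to 10.62. Klk1b16 read 9.96, 10.93 and 10.97, and Klk1b27 read 9.15, 10.41 and 10.46. Klk1, the tissue kallikrein itself, read 8.20, 9.27 and 9.73. Each of the 11 was lowest in tumor 1 and had a range above 1 unit, from 1.01 to 1.58. Signal of these genes is uncertain one by one, because they are related copies and probes may respond to several of them, which was not tested. The 11 readings and their shared tumor order may therefore not be separate observations.

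Their promoters were compared as well. In the RefSeq table of GRCm38.p6, the windows from 250 bases before to 50 after the start of 14 Klk1-family genes were compared in 91 pairs. Identity over the aligned bases alone, which numbered 202 to 298 a pair, ran from 77.1% to 97.7%, with a median of 85.2%. The letters TTTAAA, which are their own reverse complement, were found in 13 of the 14 windows and in 13.2% of all 32851 promoters in the table. TATAAA was found in none of the 14 on either strand, against 13.6% of all. AGAACA, the hexamer that androgen and glucocorticoid receptors favor, was found on either strand in 2 of the 14 and in 6233 of all 32851. Such matches describe letters and not binding. The 250 bases before the start are given for the brightest member and for Klk1b27 and Klk1b24, a pair with 91.3% identity over 286 aligned bases, with TTTAAA in capitals. They lie on the plus strand at chr7:44137040-44137289 for Klk1b16, chr7:44052040-44052289 for Klk1b27 and chr7:44187986-44188235 for Klk1b24.
Klk1b16: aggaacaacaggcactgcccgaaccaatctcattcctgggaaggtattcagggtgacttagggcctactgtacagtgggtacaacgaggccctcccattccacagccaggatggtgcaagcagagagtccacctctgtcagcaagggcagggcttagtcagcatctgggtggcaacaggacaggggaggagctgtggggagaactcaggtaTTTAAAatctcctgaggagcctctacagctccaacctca
Klk1b27: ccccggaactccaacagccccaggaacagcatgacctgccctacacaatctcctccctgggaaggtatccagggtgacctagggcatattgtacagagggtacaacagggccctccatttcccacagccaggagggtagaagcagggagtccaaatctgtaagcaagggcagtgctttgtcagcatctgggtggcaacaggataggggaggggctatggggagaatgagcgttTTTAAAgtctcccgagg
Klk1b24: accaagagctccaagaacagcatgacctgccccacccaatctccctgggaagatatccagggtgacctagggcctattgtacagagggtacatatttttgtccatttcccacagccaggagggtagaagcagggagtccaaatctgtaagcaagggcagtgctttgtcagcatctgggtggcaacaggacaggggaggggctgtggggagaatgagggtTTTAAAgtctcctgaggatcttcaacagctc
The capitals begin 39 bases before the annotated start in Klk1b16, 17 before it in Klk1b27 and 31 before it in Klk1b24. Klk1b24 itself read 8.38, 9.72 and 9.79, again lowest in tumor 1.

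Lipocalins are small secreted carriers of hydrophobic molecules. Of 15 listed members, 4 were at receptor level and 5 were above background, or 33.3%, against 30.1% of all genes and 35.8% of protein-coding genes. The list's median of 5.54 was near the 5.61 of all genes and under the 6.10 of protein-coding genes. A few members were bright. Prostaglandin D synthase (Ptgds) read 10.30, 11.06 and 10.93. Lcn12, known from the epididymis, read 9.28, 10.60 and 10.14, and Lcn10 read 8.59, 9.72 and 9.98. The odorant-binding Obp2a averaged 9.64 and the iron-scavenging Lcn2 averaged 9.03. Each of these 5, like Lcn11, was lowest in tumor 1. Lcn3, Lcn4, Lcn9 and Mup20 were at receptor level, so the family was not bright throughout.

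Chemokines guide leukocytes along gradients, and 11 of 30 were above background. That is 36.7%, near the 35.8% of protein-coding genes, and the list's median was 6.40. The monocyte attractant Ccl2 read 8.69, 9.11 and 9.03. The neutrophil attractants Cxcl1 and Cxcl2 read 8.33, 8.98 and 9.01, and 8.42, 8.61 and 8.89. Cxcl14 and the mucosal chemokine Ccl28 averaged 8.91 and 8.87. Cxcl15 missed the limit at 4.93, and Cxcl12 averaged 5.53. Ccl8, a monocyte attractant that macrophages also make, read 8.77, 5.84 and 7.06, in the same tumor order as Lyz2.

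Of 30 cytokines, 7 were above background, or 23.3%, under the 35.8% of protein-coding genes. Macrophage migration inhibitory factor (Mif) read 11.59, 11.98 and 12.09. The colony-stimulating factors of macrophages (Csf1) and granulocytes (Csf3) read 7.73, 8.30 and 8.55, and 7.19, 8.60 and 8.26, and Il34, which shares the Csf1 receptor, averaged 8.26. Those 4 were not highest in tumor 1, whereas the interleukin-1 genes were. Il1b read 8.77, 6.09 and 7.15, Il1a 8.17, 5.37 and 6.35, and their receptor antagonist Il1rn 7.55, 5.58 and 6.80. All 3 exceeded the limit in tumor 1 and lay under it in tumor 2. Il6 averaged 5.72 and Ifng 3.49.

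Of 39 growth factors, 15 were above background, or 38.5%, near the 35.8% of protein-coding genes, with a median of 6.40. Ccn1, a matricellular target of Yap signaling, read 11.78, 11.82 and 11.90. The angiopoietin-like protein Angptl7 read 10.05, 9.35 and 10.47, and the epidermal growth factor family member Hbegf 9.18, 9.66 and 9.68. All 3 transforming growth factor beta genes were present, with Tgfb1 at 9.36, Tgfb2 at 9.36 and Tgfb3 at 9.43. The vascular factors Vegfa and Pgf averaged 8.70 and 8.80. Fgf10, Igf1 and Hgf, which stroma usually supplies, were at receptor level at 3.38, 4.73 and 3.84.

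Secreted proteases and inhibitors were above background in 17 of 27 cases and matrix proteins in 16 of 20. The cysteine protease inhibitors Cstb and Cst3 averaged 11.94 and 11.33, and the lysosomal cathepsins Ctsb and Ctsl 10.79 and 10.09. Mmp3, a stromelysin, read 5.60, 5.32 and 7.61 and was above the limit only in tumor 3. In the matrix, the adhesive protein Thbs1 and the proteoglycan Bgn averaged 10.89 and 10.69. Of 19 complement and acute phase genes, 11 were above, and 2 proteins usually made by liver were bright. The endotoxin-binding Lbp read 11.83, 11.58 and 11.97, and fibrinogen beta (Fgb) 12.11, 11.93 and 11.27. Tumor 3 was the highest for the former and the lowest for the latter.

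Most metabolic genes were above background. Over 10 lists, 144 of 183 genes passed, or 78.7%, against 30.1% of all genes and 35.8% of protein-coding genes. The median of the 183 was 8.49. Most of these lists hold processes that growing cells of many kinds run. All 18 respiratory chain genes were above, with a median of 10.93. The oxidase subunit Cox7a2 read 12.09, 12.17 and 12.17.

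Of 18 genes of glucose breakdown, 14 were above, led by Pgam1 at 11.71, Gapdh at 11.47 and Tpi1 at 11.30. The glucose transporter Slc2a1 read 9.96, 10.21 and 10.16, and Slc2a3 was under the limit at 5.36. Lactate dehydrogenase A (Ldha) averaged 8.91 and Ldhb 6.01. Normal prostate stores zinc and exports citrate, and 25 of 28 genes of the citrate cycle and zinc handling were above. Citrate synthase (Cs) averaged 10.09 and malate dehydrogenase (Mdh2) 10.93. The zinc importer Slc39a1 averaged 9.37, the zinc-binding metallothioneins Mt1 and Mt2 averaged 9.84 and 9.66, and Slc39a2 was at receptor level at 4.27.

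Lipid synthesis genes were bright. Of 22 fatty acid genes, 17 were above, led by fatty acid synthase (Fasn) at 11.18, 11.32 and 11.22. The desaturases Fads2 and Scd1 averaged 10.94 and 9.73. The droplet protein Plin2 read 8.77, 9.96 and 10.05, the only fatty acid gene with a range above 1 unit, lowest in tumor 1. Of 16 cholesterol genes, 14 were above, with the lipoprotein receptor Scarb1 at 9.88 and the regulator Srebf2 at 8.94.

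Steroid synthesis was the exception among the metabolic lists. Of 17 genes, 2 were above and 8 at receptor level, with a median of 5.06. The 2 were Hsd17b10 and Hsd17b4, which averaged 10.17 and 8.62 and also act in mitochondrial and peroxisomal fat breakdown. The enzymes that build androgens from cholesterol were low, with Cyp11a1 at 5.06, Cyp17a1 at 5.17, Hsd3b1 at 3.54 and Hsd17b3 at 3.63.

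Polyamines are made in quantity by prostate. Ornithine decarboxylase (Odc1), the first enzyme of the route, read 10.43, 10.58 and 10.49, and spermidine synthase (Srm) averaged 10.12. Arginase 1 (Arg1), also a macrophage enzyme, read 8.13, 6.89 and 7.49, in the order of the myeloid genes. Of 22 nucleotide and one-carbon genes, 21 were above. Cad, which starts pyrimidine synthesis, averaged 10.73, and the mitochondrial serine enzyme Shmt2 read 9.93, 10.43 and 10.44. Tumor 1 was lowest in 21 of these 22 genes, against 11815 of all 30063, by small steps, since the list's median SD was 0.15. Of 13 genes of amino acid transport and glutamine use, 11 were above, led by the paired subunits Slc7a5 at 10.54 and Slc3a2 at 10.24. Of 19 antioxidant genes, 15 were above, while Nqo1, a classical target of Nrf2, was at receptor level at 3.52.

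**Figure D4:**
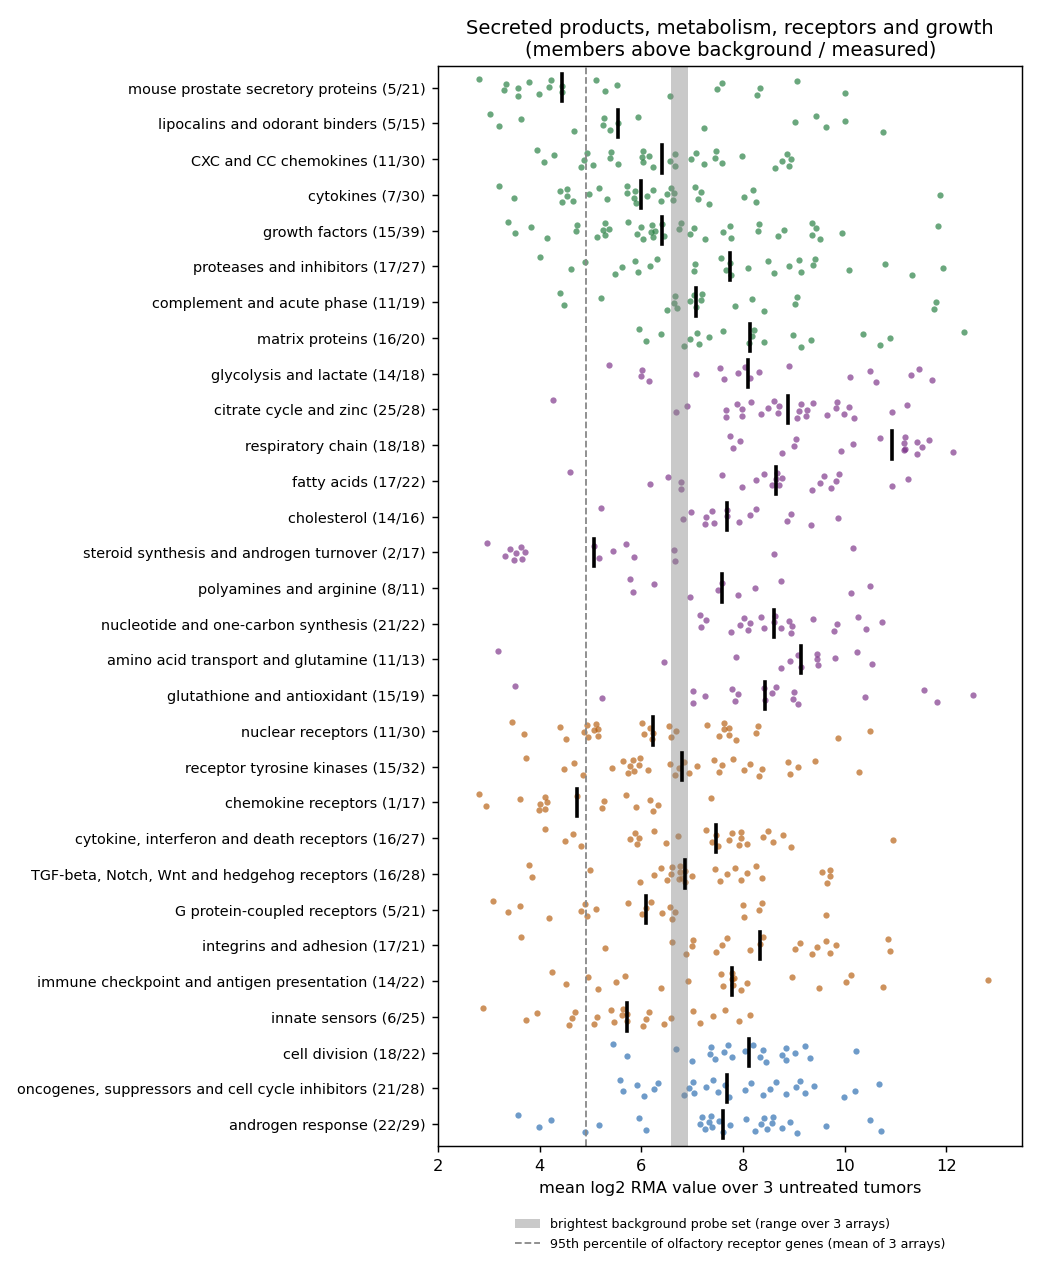
Mean log2 RMA value over the 3 untreated tumors (x axis) of every measured gene in the lists of secreted products (green), metabolism (purple), receptors (orange) and growth (blue). Black ticks are list medians, the gray band and dashed line are the 2 background yardsticks, and each label gives members above background over members measured. The respiratory chain lies wholly right of the band, and the chemokine receptors and steroid synthesis genes lie mostly left of it.

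Nuclear receptors bind steroids and other small ligands, and 11 of 30 were above background. That is 36.7%, near the 35.8% of protein-coding genes. The immediate early receptor Nr4a1 read 10.81, 10.35 and 10.35, and the vitamin D receptor Vdr 9.71, 9.94 and 9.97. The retinoic acid receptor Rarg averaged 8.26. The steroid receptors measured were under the limit in all tumors or in part of them. Estrogen receptor alpha (Esr1) averaged 6.59, the glucocorticoid receptor Nr3c1 5.14, the mineralocorticoid receptor Nr3c2 5.14 and the progesterone receptor Pgr 4.39.

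Of 29 genes known to respond to androgen, 22 were above, or 75.9% against 35.8% of protein-coding genes, with a median of 7.61. The highest were Nfkbia at 10.72, Odc1 at 10.50 and the kinase Sgk1 at 9.63. The metalloreductase Steap4 and the chaperone Fkbp5 averaged 8.92 and 8.59. Pbsn, Msmb and Zbtb10 were at receptor level, and Tmprss2 averaged 4.89. Levels alone do not show which of them androgen controls in these cells.

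Of 32 receptor tyrosine kinases, 15 were above background, or 46.9% against 35.8% of protein-coding genes. The ephrin receptor Epha2 read 9.67, 10.52 and 10.66, with tumor 1 lowest. Ror1, the insulin-like growth factor receptor Igf1r and Axl averaged 9.43, 9.09 and 8.92. In the epidermal growth factor receptor family, Erbb2 averaged 8.89, Erbb3 8.38 and Egfr 6.94, and Erbb4 was at receptor level at 3.73. Met, whose ligand Hgf was at receptor level, averaged 7.53.

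Chemokine receptors had little signal. Of 17, 1 was above background, or 5.88% against 35.8% of protein-coding genes, and 9 were at receptor level. Cxcr4 read 7.92, 6.76 and 7.45, highest in tumor 1 and lowest in tumor 2. Cxcr2, the receptor of Cxcl1 and Cxcl2, averaged 5.27, and Ccr2, the receptor of Ccl2, averaged 2.94. Of 27 receptors of cytokines, interferons and death ligands, 16 were above, or 59.3% against 35.8% of protein-coding genes. The Tweak receptor Tnfrsf12a read 10.37, 11.20 and 11.25. Both chains of the interferon gamma receptor and both of the type I receptor were above, with means from 7.46 to 7.96. The shared subunit Il6st averaged 8.59, and Lifr, which pairs with it, was at receptor level at 4.49.

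Of 28 receptors of the transforming growth factor beta, Notch, Wnt and hedgehog routes, 16 were above, or 57.1% against 35.8% of protein-coding genes. Bmpr2, Lrp5, Notch2 and Tgfbr3 averaged 9.72, 9.72, 9.65 and 9.56. Tgfbr1 missed the limit at 6.59 and Tgfbr2 passed at 7.45. Of 21 G protein-coupled receptors, 5 were above, or 23.8% against 35.8% of protein-coding genes. They were led by the retinoic acid-induced Gprc5a at 9.64 and the angiotensin receptor Agtr1a at 8.38. Gnrhr, the target of degarelix, was at receptor level at 3.08. Of 21 integrins and adhesion receptors, 17 were above, with the proteoglycan Sdc4 at 10.86 and the beta subunit Itgb1 at 9.63.

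Class I antigen presentation was present. Of 22 genes of presentation and immune checkpoints, 14 were above, or 63.6% against 35.8% of protein-coding genes. H2-D1 averaged 10.76 and H2-K1 10.03, the peptide transporter Tap1 averaged 8.07 and its partner Tapbp 9.49. The class II gene H2-Ab1 read 8.47, 7.00 and 7.36, highest in tumor 1 with the myeloid genes. The checkpoint ligand Cd274 missed the limit at 6.38, while Cd276 averaged 7.78 and Vtcn1 7.82. Ceacam1 averaged 10.13. Of 25 innate sensors, 6 were above, or 24% against 35.8% of protein-coding genes, with the adaptor Myd88 at 8.14. Nlrp3 read 6.93, 5.31 and 6.22.

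Proliferation genes were well above the floor. Of 22 genes of cell division, 18 were above, with a median of 8.12. The sliding clamp Pcna read 9.98, 10.36 and 10.32, and the proliferation antigen Mki67 read 9.66, 9.21 and 9.10. Tumor 1 was lowest in 18 of the 22, against 11815 of all 30063 genes, Mki67 being an exception. Of 28 oncogenes and cell cycle inhibitors, 21 were above. Cdk4 averaged 10.67 and its inhibitor Cdkn2a 9.21, and the p53 target Cdkn1a read 9.65, 10.43 and 10.52. Myc averaged 8.54 ± 0.28 (SD, n = 3), and its partner Max 9.98.

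Most genes varied little among the tumors. Over the 10782 genes above background on at least 1 array, the median SD was 0.12 and 87.0% had an SD under 0.25. A range of at least 1 unit was found in 133 genes, or 1.23%, and 20 genes had a range of at least 2. Tumor 1 was the one apart in 93 of the 133 (40 high, 53 low), tumor 2 in 19 and tumor 3 in 21. Without tumor 1, 30 genes were 1 unit apart. Without tumor 2 there were 88, and without tumor 3 there were 85. The tumors give 1 value each, so these ranges have no test of their own.

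The 20 widest-ranging named genes followed a few patterns. In 15 of the 20, tumor 1 was highest. These included Bcl2a1a, an apoptosis inhibitor of blood cells, at 9.05, 6.18 and 7.84, and cathepsin S (Ctss), at 9.29, 7.09 and 8.13. They also included Clec7a, Plek, Lyz1 and Ms4a6c, all known from macrophages, which had ranges from 2.03 to 2.43. Itgam and Adgre1, which encode sorted-out antigens, were also highest in tumor 1. Both stayed under the limit, which itself was highest in tumor 1 at 6.93. The methyltransferase Inmt read 8.51, 6.15 and 7.08, and Efemp1, a fibulin of the matrix, 10.31, 8.24 and 9.63. The goblet cell protein Clca1 read 10.04, 8.37 and 7.94, and was lowest in tumor 3. Whether other cells carry any of these differences was not tested.

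The remaining 5 of the 20 ran otherwise. Tumor 3 was highest in Ct55, a cancer-testis antigen, at 5.84, 6.94 and 8.28, in Mmp3, in the acute phase gene Saa4, at 4.97, 5.10 and 7.09, and in the cartilage matrix gene Chad, at 6.08, 7.15 and 8.01. Tumor 2 was highest in Spinkl. Just past the 20, and named after their values were seen, the secretory gene Pip read 7.70, 8.94 and 7.03, highest in tumor 2. Scgb2a2, a secretoglobin, read 10.14, 9.50 and 8.24, highest in tumor 1. Among the 20, the secreted products Ccl8, Il1a, Il1b, Il1rn, Lyz1, Lyz2, Ctss and Efemp1 shared an order, highest in tumor 1 and lowest in tumor 2. Spinkl, Mmp3, Saa4, Chad and Clca1 did not follow it.

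**Figure D5:**
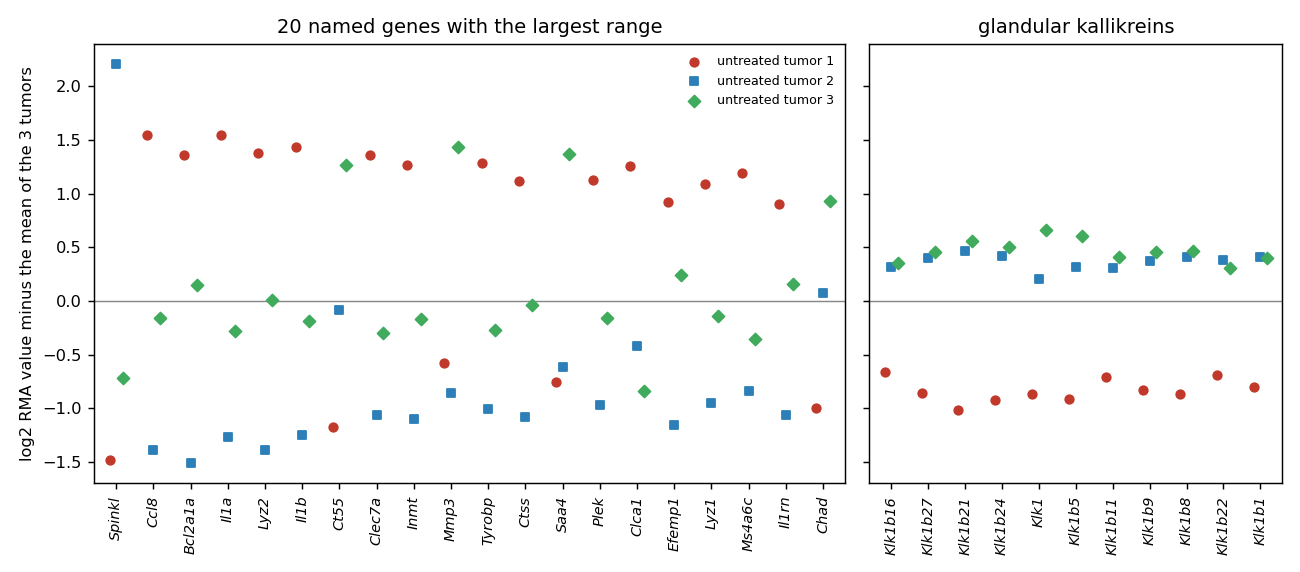
Log2 RMA value minus the mean of the 3 tumors (y axis) for the 20 named genes with the largest range (left) and the 11 glandular kallikreins (right), in untreated tumors 1 (red circles), 2 (blue squares) and 3 (green diamonds). Tumor 1 lies at the top for most genes on the left and at the bottom for every kallikrein.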

How the data were processed

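RNA of sorted MCRedAL cells was measured on 1 Affymetrix MTA 1.0 array per tumor. The deposited table holds log2 values that the authors made with Affymetrix Expression Console and robust multi-array averaging (RMA), per the submitters' processing notes. The sources used here give neither software versions nor the genome build. Only the 3 untreated columns of the 6 in that table were used, without further normalization. Of 72688 rows, 6732 controls, 2146 clusters with several symbols and 33206 with none were left out. Symbols were updated through Entrez identifiers or a unique synonym (1135 renamed), and the brightest of several clusters was kept for 429 genes.

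Genes were compared with 23 background probe sets and with 1225 olfactory receptors. The members and the 47 gene lists (979 genes, 869 measured) were chosen with earlier results of these data known. Named were the defining members, the 6 highest and the widest-ranging members of each list, and over all genes the 25 highest and 20 widest-ranging. Unnamed gene models, small RNAs and ribosomal, mitochondrial and olfactory genes were passed over, 244 of them above the last of the 25 and 2 among the widest ranges. Alternatives were other limits, cluster rules, symbols, normalizations, each tumor left out, and limma 3.58.1 in R 4.3.3 (one-sided, Benjamini-Hochberg threshold 0.05). The limma test was also run on simulated data, which held no shift shared by all genes of an array. Tables used Python 3.11.15 and pandas 2.3.3, and promoters came from RefSeq (GRCm38.p6). Arrays give no read depth, so the number of tumors (3) limits the precision.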

Additional observations from a re-analysis of the deposited data

Results flagged for a closer look

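Signal was also found in clusters that the gene-by-gene description did not use, because their annotation names several genes or none. Of 2146 clusters with several symbols, 583 (27.2%) were above the brightest background probe set on all 3 arrays, and so were 2640 of 33206 clusters without a symbol (7.95%). Among listed genes that only share a cluster, 3 stood out. The cluster of the keratins Krt6a and Krt6b, found in basal and wound epithelium, had a mean of 9.91 and read 9.02, 10.43 and 10.28. The cluster shared by Cd74, the class II invariant chain, and Mir5107 had a mean of 8.93 and read 10.30, 7.82 and 8.66, in the tumor order of the myeloid genes. The brightest cluster of the alpha globins Hba-a1 and Hba-a2 had a mean of 8.58 and read 9.08, 8.04 and 8.61, with tumor 1 again highest. With 3 tumors, no test for a single outlying sample was made.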

How the results depend on the processing

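The number of genes above background (9055, with 444 list members) depends on the limit. With the median background probe set as the limit it was 25901 genes and 848 list members, with the olfactory 95th percentile 17880 and 712, and with 1 unit above the brightest probe set 5114 and 279. By limma's one-sided test 8879 genes passed, 8724 of them shared with the rule used, and 9181 had an unadjusted p under 0.05. The test gave each listed gene the same standard error, 0.1422. Its p-values therefore follow the mean distance from the limit and not each gene's own spread, and the overlap is no independent check of the rule. Leaving out each tumor gave 9069 to 10313 genes and 445 to 478 list members. The count of genes with a range of at least 1 unit (133) was 76 among genes above background on all 3 arrays, and 30 to 88 with a tumor left out. It was 118 to 139 under cyclic loess, quantile normalization or median centring. The other counts, for cluster rules and symbols, stayed within 1.5 times. Of 517 list counts under these alternatives, 89 differed by more than 1.5 times. No paired analysis was possible because only 1 group was used and no test between groups was made.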

Other observations

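The heat shock genes, a family singled out after its values were seen, had a median level of 10.35. Of 10 measured members, 9 were above background, and tumor 1 was lowest in 7, against 11815 of all 30063 genes. Their median SD was 0.15, against 0.12 over genes above background on at least 1 array. The nucleotide exchange factor Hsph1 differed most and read 9.72, 11.42 and 10.87, lowest in tumor 1. Hspa8, the brightest gene, had a range of 0.05. The cochaperone Dnajb1 read 8.46, 9.24 and 8.86, and the inducible Hspa1a read 6.81, 7.70 and 7.21, both in the same tumor order as Hsph1. Hspa5 and Hsp90b1, the chaperones of the endoplasmic reticulum, averaged 10.93 and 12.04 and differed by less than 0.13 among the tumors. No explanation of these differences was tested.

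The cluster that Gata3, a luminal lineage factor, shares with a neighbouring transcript read 8.12, 7.95 and 7.97, above background in all 3 tumors.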
